A study of Rattus norvegicus with 20 samples.

Results

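The genes described here encode the proton pump of the lysosome and the cathepsins, proteases many of which work inside it. A gene was taken when a probe set carried 1 gene symbol that starts with Atp6v, Atp6ap or Cts, and where a gene had several such probe sets the one of the highest mean signal stood for it. This gave 42 of the 14497 genes with a single symbol, 23 for the pump and 19 for cathepsins. The genes were chosen by name and not by their values. The subunit gene Atp6v0a2 and the cathepsin-like genes Ctsql1 and Ctsql2 share a probe set with another symbol and were left out by this rule, and Tcirg1, which encodes another a subunit of the pump, is not named by it.

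The vacuolar proton pump, or V-ATPase, consists of a cytosolic V1 sector, which hydrolyses ATP, and a V0 sector in the membrane, through which protons pass into the lysosome. Cathepsins are made as inactive precursors that mature at acid pH, so that the pump and the proteases act in sequence in the breakdown of proteins taken up by the cell. Monocytes and macrophages hold many lysosomes and use cathepsins to digest what they engulf and, with cathepsin S in particular, to prepare peptides for presentation on MHC class II molecules. Several subunits of the pump exist as isoforms, some found in nearly every cell and others in kidney, testis, brain or bone.

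RNA of blood cells was measured in 20 male rats in 4 groups of 5, with 1 Rat Gene ST array per rat. The rats were of the inbred strains LEW (LEW/Crl) and WKY (WKY/NCrl), were 15 weeks old, had eaten a standard (STD) or a cafeteria (CAF) diet for 7 weeks, the latter a hypercaloric diet, and had fasted for 9 h before blood was taken. The study asked how the circulating monocytes of the 2 strains differ, and what the diet does in each. The labels call the cells PBMC, whereas the methods describe monocytes that adhered to plastic.

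Values are log2 signals as deposited, and a difference is a difference of group means on that scale with its standard error (SE). Each comparison was made with limma over all 28826 probe sets, called transcripts in the following, and a gene passed at an adjusted p under 0.05. The signals of different probe sets are not compared with each other, since probes bind with different strength, apart from a rough sorting into brighter and dimmer ones. In bulk RNA fewer cells of a type and less RNA per cell cannot be told apart. The array medians lay between 6.83 and 6.90, and the number of rats limits the precision. The median SD of a member within a group, taken over the members, was 0.0894.

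The preparation held monocytes and other blood cells in all groups. In WKY rats on CAF, 6 of the 14 monocyte and macrophage markers on the array passed as lower than in LEW rats and none as higher, and on STD 5 passed as lower and 1 as higher. Their mean level per array was 10.67 to 10.84 in LEW STD, 10.62 to 10.86 in LEW CAF, 10.26 to 10.61 in WKY STD and 9.94 to 10.47 in WKY CAF rats. Of 14 neutrophil markers, 5 were higher in WKY rats on CAF and 9 on STD, with none lower, and their mean level was 7.60 to 8.15, 7.86 to 8.82, 8.57 to 9.76 and 8.53 to 9.35 in the same order of groups. The neutrophil genes Mpo, Elane, Prtn3 and Ltf had group means of only 5.67 to 6.71 throughout. Markers of NK cells were also higher in WKY rats, 8 of 11 on CAF and 10 of 11 on STD, with 1 lower on each diet. The lists for T cells, B cells, platelets, erythroid and dendritic cells gave 0 to 1 higher and 0 to 5 lower markers per comparison, and no marker of any list passed between the diets. Finally, 4 arrays, LEW STD rats 2 and 3, WKY STD rat 1 and LEW CAF rat 2, stood apart by a mean level of 8 heat shock genes of 10.92 to 11.73, against 9.84 to 10.03 in the other 16, and each call on the 42 genes that changes without them is given both ways. The lists of other genes were fitted with all 20 arrays only.

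**Figure D1:**
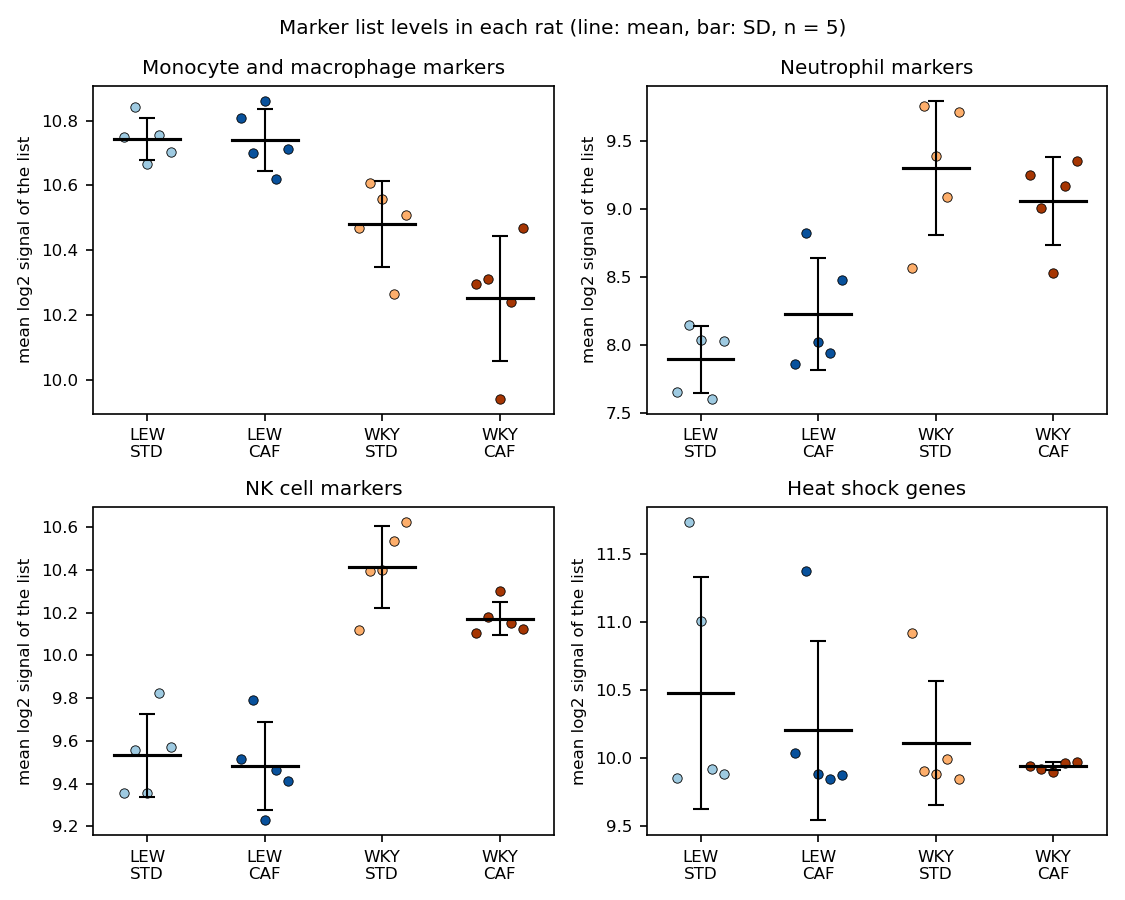
Mean log2 signal of 4 gene lists in each of the 20 rats by group, with 1 point per rat, a line at the mean and a bar of 1 SD (n = 5). Monocyte markers were lower and neutrophil and NK cell markers higher in the WKY groups, and 4 arrays had heat shock levels of 10.92 or more.

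The 42 genes differed in their level of signal. No detection call was made, so that this level alone does not show whether a gene is expressed in these cells. The signal of 29 of them lay above the median of all probe set means (6.86) and that of 13 below it. All 8 ubiquitous V1 subunits, all 5 broadly expressed V0 subunits and both accessory proteins were above it, with group means of 9.29 to 11.61, 10.65 to 12.50 and 11.19 to 11.67. The isoforms restricted to certain tissues had group means of 4.68 to 7.73, and only Atp6v1g2 and Atp6v0e2, isoforms known from brain, lay above the median. The 9 cysteine cathepsins (Ctsb, Ctsc, Ctsf, Ctsh, Ctsk, Ctsl, Ctss, Ctsw and Ctsz), the aspartic cathepsins Ctsd and Ctse and the serine carboxypeptidase Ctsa were above it as well. The serine protease Ctsg, a product of immature myeloid cells, had group means of 5.62 to 5.73. The 6 placental cathepsins (Cts7, Cts8, Ctsj, Ctsm, Ctsq and Ctsr), a rodent cluster of close copies whose probes may share signal, had group means of 4.11 to 5.01, and a difference among such dim probe sets would be less visible.

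Promoter sequences of 34 of the 42 genes are in the RefSeq table of the rat reference genome (GRCr8), from 250 bases before to 50 bases after the annotated start. The reference is not a LEW or WKY genome. Promoters are shown for Ctss and Ctsa, which differed between the strains on both diets, and for Ctsd, which holds the core motif of lysosomal genes more than once. Of the V1 subunits that were higher in WKY rats on STD, only Atp6v1d has an entry and is shown. Atp6v1b2, Atp6v1c1 and Ctsb, which also passed on STD, have none and are not in the counts of motifs. Capitals mark CACGTG, the core of the CLEAR element to which TFEB and related factors bind, GGGCGG, a GC box, and GAAA repeated after a gap of 2 bases, an element of the kind bound by interferon regulatory factors, each searched on both strands. The regions are chr2:185775146-185775445 (plus strand) for Ctss, chr3:173988193-173988492 (plus) for Ctsa, chr6:103405297-103405596 (minus) for Atp6v1d and chr1:206968772-206969071 (minus) for Ctsd.
Ctss: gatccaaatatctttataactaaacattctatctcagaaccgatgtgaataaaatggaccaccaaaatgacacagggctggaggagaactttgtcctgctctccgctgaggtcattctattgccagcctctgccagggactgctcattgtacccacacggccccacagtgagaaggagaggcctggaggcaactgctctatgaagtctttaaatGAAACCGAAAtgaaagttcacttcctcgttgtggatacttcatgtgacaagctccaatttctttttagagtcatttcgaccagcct
Ctsa: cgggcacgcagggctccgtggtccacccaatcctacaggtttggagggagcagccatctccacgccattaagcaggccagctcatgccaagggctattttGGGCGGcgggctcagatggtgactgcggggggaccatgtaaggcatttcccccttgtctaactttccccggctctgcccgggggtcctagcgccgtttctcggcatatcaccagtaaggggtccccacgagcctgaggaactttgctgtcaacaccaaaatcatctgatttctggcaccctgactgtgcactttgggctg
Atp6v1d: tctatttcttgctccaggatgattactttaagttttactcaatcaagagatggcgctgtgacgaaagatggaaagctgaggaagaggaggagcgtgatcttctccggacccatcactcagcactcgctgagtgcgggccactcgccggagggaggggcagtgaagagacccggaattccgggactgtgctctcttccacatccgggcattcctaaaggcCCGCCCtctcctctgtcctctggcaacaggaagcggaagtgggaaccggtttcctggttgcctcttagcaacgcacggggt
Ctsd: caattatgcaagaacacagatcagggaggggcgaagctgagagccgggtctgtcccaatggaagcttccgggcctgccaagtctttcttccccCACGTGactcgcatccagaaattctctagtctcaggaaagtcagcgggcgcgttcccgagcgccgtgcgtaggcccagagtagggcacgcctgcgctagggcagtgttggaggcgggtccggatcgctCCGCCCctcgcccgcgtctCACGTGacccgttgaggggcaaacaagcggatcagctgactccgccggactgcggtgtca
CACGTG was found in 4 of the 34 promoters (11.8%), those of Atp6v0d1, Atp6v0e1, Ctsd and Ctsf, and in 6.42% of all 33469 promoters of the table. Ctsd held it at 2 places. The longer CLEAR consensus, which contains this core with GT before and AC after it, was in none of the 34 and in 0.233% of all. GGGCGG was in 19 (55.9%, against 33.1% of all) and the repeat of GAAA in 2 (5.88%, against 3.92% of all), Atp6v1a and Ctss. These are matches of letters, not known sites of binding.

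The first comparison was that of WKY with LEW rats on CAF. Cathepsin S (Ctss) and cathepsin H (Ctsh), an aminopeptidase, were lower and the protective carboxypeptidase cathepsin A (Ctsa) was higher in WKY rats. Of the pump, only Atp6v1g1, a subunit of its peripheral stalk, differed, and was lower in WKY rats. In all, 4 of the 42 genes (9.52%) passed, 1 higher and 3 lower, where 7.58% of all transcripts passed, 4.24% higher and 3.34% lower. Among the brighter transcripts, those above the median of means, 12.4% passed, and all 4 genes were among these. At an unadjusted p under 0.05, 2 genes had a higher and 5 a lower value (9.41% and 9.13% of all transcripts, 18.5% together). These 7 were among the 29 brighter genes, and 27.2% of the brighter transcripts had such a p. In 5 genes, all of them brighter, the groups did not overlap (7.8% of all transcripts and 12.1% of the brighter ones). The median difference of the 42 genes was 0.01 and that of all transcripts −0.01, and the 95% intervals of all 42 lay within a change of 1.5-fold.

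Ctss was measured at 10.98, 11.14, 10.94, 11.01 and 11.06 in the WKY CAF rats (mean 11.03 ± 0.08, SD, n = 5). In the LEW CAF rats it was at 11.49, 11.30, 11.50, 11.39 and 11.35 (11.41 ± 0.09). Every WKY rat lay below every LEW rat. The difference was −0.38 (SE 0.06, adjusted p = 0.000245), or 1.30-fold. It stayed past the test without each array in turn and without the 4 heat shock arrays (−0.41, adjusted p = 0.0008).

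Ctsa, whose product also stabilises β-galactosidase and neuraminidase in the lysosome, went the other way. It was at 11.91, 11.82, 11.77, 11.94 and 11.88 in WKY CAF rats (11.86 ± 0.07, SD, n = 5) and at 11.64, 11.52, 11.57, 11.64 and 11.56 in LEW CAF rats (11.59 ± 0.05). The 2 groups did not overlap. The difference was 0.28 (SE 0.04, adjusted p = 0.000302), or 1.21-fold, and 0.26 (adjusted p = 0.0026) without the 4 heat shock arrays.

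Atp6v1g1 was at 10.43, 10.53, 10.36, 10.57 and 10.57 in WKY CAF rats (10.49 ± 0.09, SD, n = 5) and at 10.72, 10.60, 10.75, 10.64 and 10.80 in LEW CAF rats (10.70 ± 0.08). The groups did not overlap, although the highest WKY and the lowest LEW rat were close. The difference was −0.21 (SE 0.05, adjusted p = 0.0179), and it no longer passed when rat 3 or 5 of LEW CAF or rat 3 of WKY CAF was left out (adjusted p up to 0.0552). Ctsh was at 11.43, 11.39, 11.10, 11.30 and 11.46 in WKY CAF and at 11.72, 11.74, 11.78, 11.52 and 11.54 in LEW CAF rats. These values did not overlap either, with means of 11.34 ± 0.14 and 11.66 ± 0.12 (SD, n = 5). Its difference was −0.32 (SE 0.09, adjusted p = 0.0363), and this was the least stable of the 4 calls. It was lost when rat 1, 2 or 3 of LEW CAF or rat 2, 3 or 4 of WKY CAF was left out (adjusted p up to 0.103), with the replicate number as a block (adjusted p = 0.0553) and without the 4 heat shock arrays (−0.30, adjusted p = 0.0931).

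**Figure D2:**
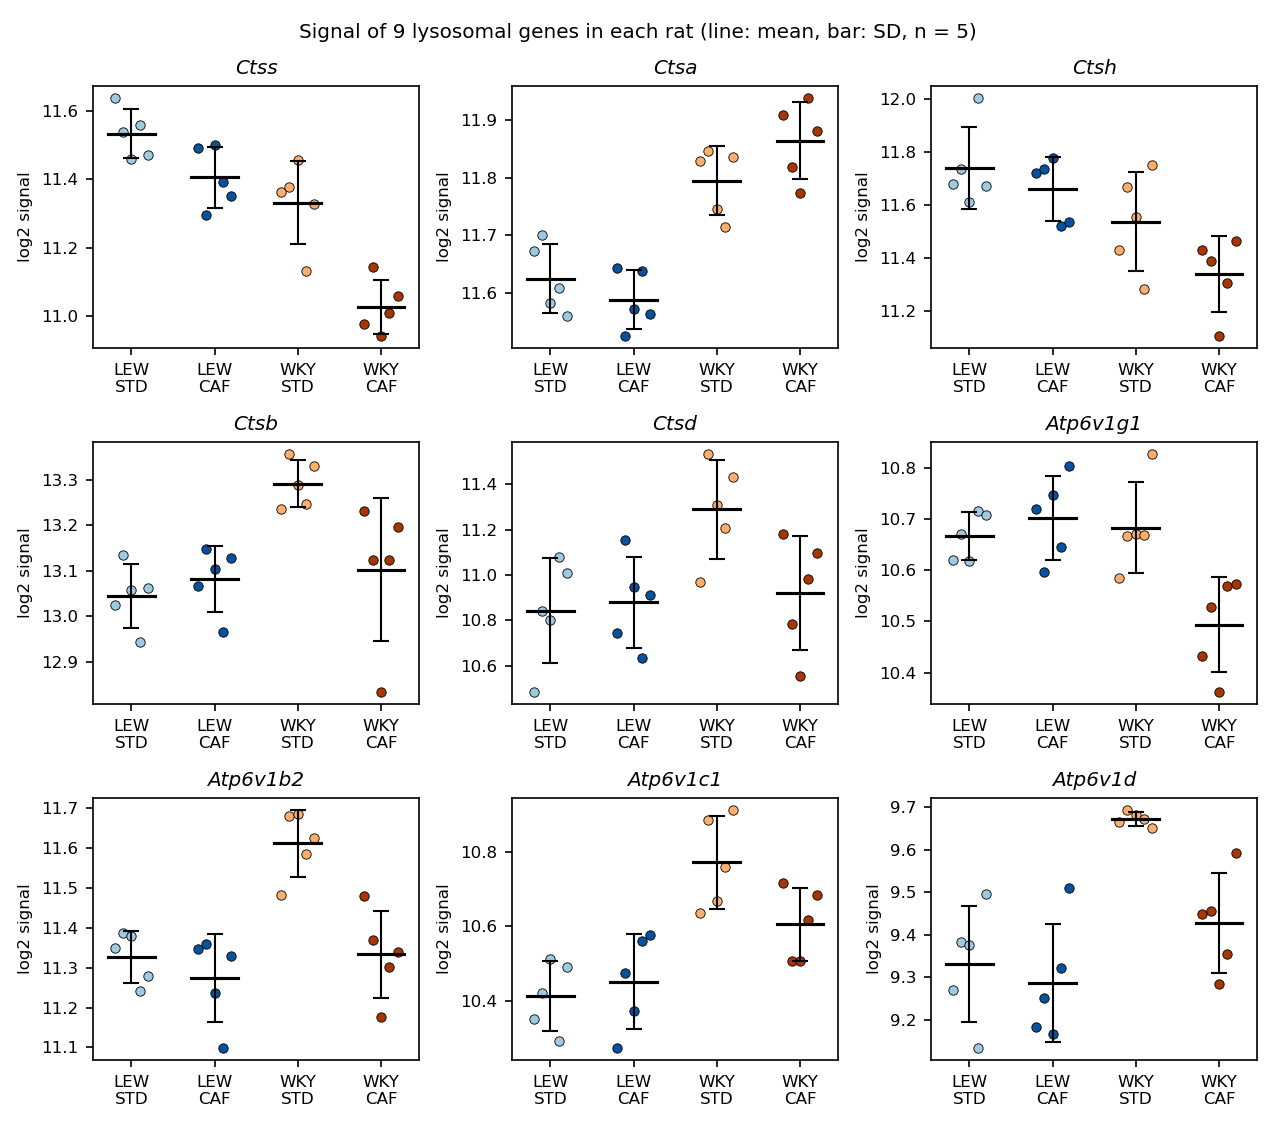
Log2 signal of the 9 genes that passed between the strains on CAF or on STD, in each of the 20 rats by group, with 1 point per rat, a line at the mean and a bar of 1 SD (n = 5). Ctss was lowest and Ctsa highest in WKY CAF rats, at means of 11.03 and 11.86, whereas Atp6v1b2, Atp6v1c1, Atp6v1d, Ctsb and Ctsd were highest in WKY STD rats. Each panel has its own axis, which does not start at 0.

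The other 38 genes did not pass on CAF. Among the ubiquitous V1 subunits, the differences ranged from −0.21 for Atp6v1g1 to 0.15 for Atp6v1c1, the subunit that holds V1 to V0 (adjusted p = 0.239). Those of the broad V0 subunits ranged from −0.04 for Atp6v0e1 to 0.14 for Atp6v0a1 (adjusted p = 0.608), and those of the restricted isoforms from −0.13 for Atp6v0e2, whose groups did not overlap (adjusted p = 0.146), to 0.05 for Atp6v0a4. The accessory proteins Atp6ap1 and Atp6ap2, the latter also known as the prorenin receptor, differed by 0.08 and −0.08. Of the remaining cysteine cathepsins, Ctsw, a protease of NK and cytotoxic T cells, had −0.26 and Ctsl −0.24 (adjusted p = 0.308 and 0.202), and Ctsf had the highest value, 0.17 (adjusted p = 0.608). The placental cathepsins lay between −0.08 and 0.08. Without the 4 heat shock arrays Ctsw passed as well (−0.39, adjusted p = 0.0159), so that 4 genes passed in that fit too.

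Of the monocyte markers, the chemokine receptor Ccr2 and fibronectin (Fn1) were lower in the same WKY CAF rats, at −1.38 and −1.39 (adjusted p = 9.64e-07 and 3.47e-07), while Cd14 and Lyz2 did not pass at −0.16 and −0.17 (adjusted p = 0.544 and 0.0554). Over the 20 arrays, after removal of the group means, the deviations of Ctsh and Ctss followed the mean of the monocyte markers with r of 0.74 and 0.68 (Spearman's rho 0.77 and 0.74), and r of 0.58 and 0.54 without the 2 farthest arrays. All these points come from the same arrays, in which depth and composition are shared. The part of the monocyte markers in the lower Ctss and Ctsh was not tested. The deviations of Ctsa had an r of 0.51 with the monocyte markers, and the part of cell composition in the higher Ctsa was not tested either.

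The same comparison was made on STD, where Ctss and Ctsa passed again. Several V1 subunits and the proteases Ctsb, Ctsd and Ctsa were higher and Ctss was lower in WKY than in LEW rats. Of the 42 genes, 7 (16.7%) passed, 6 higher and 1 lower, where 11.3% of all transcripts passed, 5.88% higher and 5.38% lower. Of the brighter transcripts 18.1% passed. At an unadjusted p under 0.05, 13 genes had a higher and 4 a lower value (11.3% and 12% of all transcripts, 23.3% together). Among the brighter ones these were 14 of 29 genes and 33.6% of transcripts. In 9 genes, all of them brighter, the groups did not overlap (8.46% of all transcripts and 13.7% of the brighter ones). The median difference was 0.04 over the 42 genes, against −0.00 over all transcripts. It was 0.10 over the 17 brighter genes of the pump and 0.02 over the 12 brighter cathepsins, against −0.02 over the brighter transcripts. The 95% intervals lay within a change of 1.5-fold for 40 genes, with the exceptions of Ctsd and Ctsf.

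Atp6v1c1 was at 10.64, 10.89, 10.67, 10.76 and 10.91 in WKY STD rats (10.77 ± 0.13, SD, n = 5) and at 10.35, 10.42, 10.51, 10.29 and 10.49 in LEW STD rats (10.41 ± 0.09), a difference of 0.36 (SE 0.07, adjusted p = 0.0016). Atp6v1d, of the central stalk that turns with ATP hydrolysis, was at 9.67, 9.69, 9.68, 9.67 and 9.65 in WKY STD rats (9.67 ± 0.02) and at 9.27, 9.38, 9.37, 9.13 and 9.50 in LEW STD rats (9.33 ± 0.14), a difference of 0.34 (SE 0.07, adjusted p = 0.00278). In both genes every WKY rat lay above every LEW rat. Atp6v1b2, the B subunit next to the catalytic site, was at 11.48, 11.68, 11.69, 11.59 and 11.63 against 11.35, 11.39, 11.38, 11.24 and 11.28, again without overlap, with means of 11.61 ± 0.08 and 11.33 ± 0.06. Its difference was 0.28 (SE 0.06, adjusted p = 0.00338). These 3 calls held without each array in turn and without the 4 heat shock arrays (0.38 to 0.43 for Atp6v1d and Atp6v1c1 and 0.35 for Atp6v1b2, adjusted p = 0.0041 to 0.0164).

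The other 5 ubiquitous V1 subunits did not pass. Their differences ran from 0.00 for Atp6v1h to 0.18 for Atp6v1e1 (adjusted p = 0.187), so that no V1 subunit of this kind was below 0, though without the 4 heat shock arrays Atp6v1f, at 0.02 here, was at −0.00. The catalytic subunit Atp6v1a had 0.14 (adjusted p = 0.542) and, on its other probe set, 0.22 (adjusted p = 0.382). Of the broad V0 subunits, the proteolipids Atp6v0b and Atp6v0c did not overlap between the strains and had 0.17 and 0.15 (adjusted p = 0.103 and 0.106), and the range was from −0.10 for Atp6v0e1 to 0.23 for Atp6v0a1. The restricted isoforms had −0.08 for Atp6v0e2 to 0.12 for Atp6v1e2, and the accessory proteins 0.10 and 0.02. Without the 4 heat shock arrays Atp6v1e1 passed at 0.30 (adjusted p = 0.0168) and Atp6v0a1 at 0.38 (adjusted p = 0.0432), genes that are named here after their values were seen.

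Among the proteases, cathepsin B (Ctsb), an abundant endopeptidase of macrophages, was at 13.24, 13.36, 13.29, 13.25 and 13.33 in WKY STD rats (13.29 ± 0.05, SD, n = 5). It was at 13.02, 13.14, 13.06, 12.94 and 13.06 in LEW STD rats (13.04 ± 0.07). There was no overlap, and the difference was 0.25 (SE 0.06, adjusted p = 0.0119). Cathepsin D (Ctsd), the main aspartic protease of lysosomes, was at 10.97, 11.53, 11.31, 11.21 and 11.43 in WKY STD rats (11.29 ± 0.22) and at 10.48, 10.84, 10.80, 11.08 and 11.01 in LEW STD rats (10.84 ± 0.23). Here the lowest WKY rat lay among the LEW rats, and the difference was 0.45 (SE 0.13, adjusted p = 0.0327). It did not pass when any of rats 1, 2 and 3 of LEW STD or 2, 3 and 5 of WKY STD was left out (adjusted p up to 0.0977).

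Ctsa was at 11.83, 11.85, 11.75, 11.71 and 11.84 in WKY STD rats (11.79 ± 0.06, SD, n = 5) and at 11.67, 11.70, 11.58, 11.61 and 11.56 in LEW STD rats (11.62 ± 0.06). Ctss was at 11.36, 11.38, 11.46, 11.13 and 11.33 in WKY STD rats (11.33 ± 0.12) and at 11.64, 11.54, 11.46, 11.56 and 11.47 in LEW STD rats (11.53 ± 0.07). The groups of neither gene overlapped, though those of Ctss met at 11.46. The differences were 0.17 (SE 0.04, adjusted p = 0.0153) for Ctsa and −0.20 (SE 0.06, adjusted p = 0.0335) for Ctss, in the direction seen on CAF. Both calls ended when only the 2 STD groups were fitted (adjusted p = 0.0603 and 0.0874) and without the 4 heat shock arrays (adjusted p = 0.0581 and 0.0608), and that of Ctsa also with each array centred on its median (adjusted p = 0.0662). That of Ctss was lost also when rat 1, 2 or 4 of LEW STD or rat 4 or 5 of WKY STD was left out (adjusted p up to 0.0911).

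The remaining cathepsins did not pass on STD. Ctsf had a difference of 0.39 (adjusted p = 0.075) and Ctsc, which activates the proteases of granules, of 0.24 (adjusted p = 0.118), while Ctsh had −0.20 (adjusted p = 0.185) and the aspartic protease Ctse −0.22 (adjusted p = 0.0812). The lowest value was −0.26 for Ctsw (adjusted p = 0.238), Ctsg had 0.11, and the placental cathepsins had −0.10 for Cts8 to 0.12 for Ctsm. Without the 4 heat shock arrays Ctsw passed at −0.44 (adjusted p = 0.0143) and Ctse at −0.30 (adjusted p = 0.0267), and 9 genes passed in all. In 3 of the 4 heat shock arrays Ctsw was below every other array of the group that is not one of the 4, at 10.41 and 10.64 in LEW STD rats 2 and 3 and at 10.24 in LEW CAF rat 2, against 10.71 to 11.03 and 10.73 to 11.02 in the other rats of these groups. In WKY STD rat 1 it was at 10.57, within the range of the others (10.30 to 10.65).

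**Figure D3:**
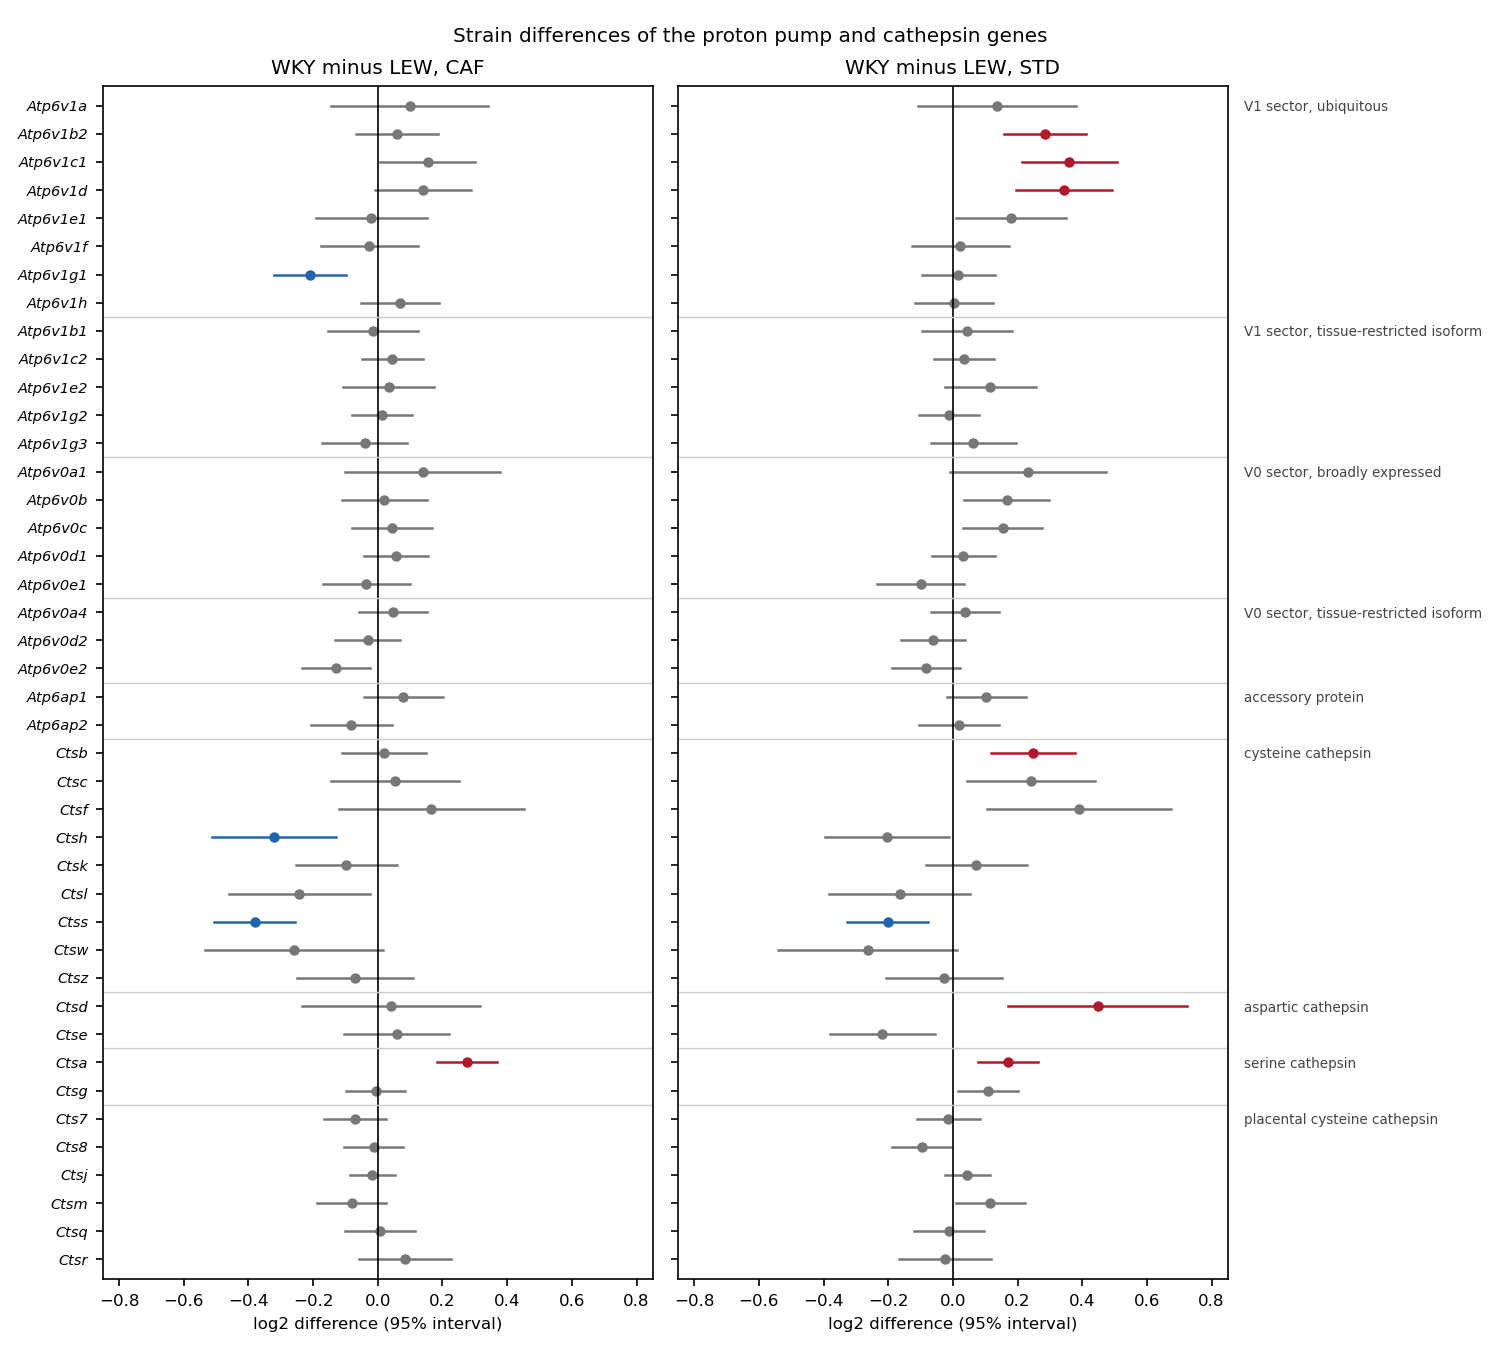
Log2 difference of WKY minus LEW rats on CAF (left) and on STD (right) for the 42 genes, ordered by role, with 95% intervals from limma over 20 arrays. Red points were higher and blue points lower in WKY rats at an adjusted p under 0.05, and grey points did not pass. On CAF 4 genes passed and on STD 7, with Ctss and Ctsa on both diets.

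Neutrophil markers were higher in the same WKY STD rats, for example Retnlg, a resistin-like protein, at 3.38 and Pglyrp1, which binds bacterial peptidoglycan, at 2.64 (adjusted p = 3.85e-06 and 2.87e-06). After removal of the group means, the deviations of Atp6v0a1, Ctsd, Ctsb, Atp6v1c1 and Atp6v1b2 followed the mean of the 14 neutrophil markers with r of 0.83, 0.76, 0.75, 0.70 and 0.67 over the 20 arrays (rho 0.85, 0.71, 0.87, 0.73 and 0.58), and with r of 0.51 to 0.85 without the 2 farthest arrays. That of Atp6v1d had an r of 0.47 and that of Ctsa of 0.06. The deviations of Ctsb also followed the mean of the monocyte and macrophage markers, whose mean level was 10.48 in WKY STD and 10.74 in LEW STD rats. The part of neutrophil or monocyte RNA in the higher V1 subunits, Ctsb and Ctsd was not tested.

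The effect of the CAF diet was examined in each strain. In LEW rats none of the 42 genes passed, as none of the 28826 transcripts did (0.0%) in limma. At an unadjusted p under 0.05, 2 of the 42 genes had a lower and none a higher value, against 3.04% and 2.42% of all transcripts (5.46% together). The 3 genes of the smallest p were Ctss at −0.13 (95% interval −0.25 to −0.00, adjusted p = 0.911), Ctse at −0.16 (−0.33 to −0.00, adjusted p = 0.911) and the placental Ctsm at 0.08 (−0.02 to 0.19, adjusted p = 0.934). All differences lay between −0.16 and 0.10, and all 42 intervals within a change of 1.5-fold. No gene had groups that did not overlap, against 0.989% of all transcripts.

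In WKY rats none of the 42 genes and none of all transcripts (0.0%) passed either. The differences were mostly below 0, for 30 of the 42 genes, with a median of −0.08 against −0.01 over all transcripts, and for 22 of the 29 brighter genes, with a median of −0.12 against 0.02 over the brighter transcripts. At an unadjusted p under 0.05, 17 of the 42 genes (40.5%) had a lower and none a higher value on CAF, where 4.79% of all transcripts had a lower and 4.01% a higher one (8.81% together). Among the brighter ones these were 13 of 29 genes and 4.94% of transcripts. The genes share arrays and are not independent, so these shares describe the 10 WKY arrays and are no test. The count was 11 with only the WKY groups in the fit, 11 with quantile normalisation, 16 without the 4 heat shock arrays, 10 without WKY STD rat 2 and 11 without WKY CAF rat 3.

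The 3 genes of the smallest p in WKY rats were Ctss, Atp6v1b2 and Atp6v1g1. Ctss, with the values per rat given for each diet, had a difference of −0.31 (SE 0.06, 95% interval −0.43 to −0.18, adjusted p = 0.187), and the CAF and STD rats overlapped by a single rat. Atp6v1b2 was at 11.48, 11.37, 11.18, 11.30 and 11.34 in WKY CAF rats (11.33 ± 0.11, SD, n = 5), and all 5 lay below the WKY STD rats, though the nearest pair was equal to 2 decimals. The difference was −0.28 (SE 0.06, interval −0.40 to −0.15, adjusted p = 0.196). For Atp6v1g1, at 10.59, 10.67, 10.67, 10.67 and 10.83 in WKY STD rats (10.68 ± 0.09), the groups did not overlap and the difference was −0.19 (SE 0.05, interval −0.30 to −0.08, adjusted p = 0.259).

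Of all transcripts 2.07% had WKY groups that did not overlap between the diets, and of the brighter ones 3.18%. Among the 42 genes there were 7 (16.7%) of this kind, 6 of them among the 29 brighter genes, and all lower on CAF. These were Atp6v1b2, Atp6v1g1, Atp6v1d (−0.25, adjusted p = 0.272), Atp6v1e1 (−0.27, adjusted p = 0.29), Atp6ap2 (−0.19, adjusted p = 0.306), Ctsb (−0.19, adjusted p = 0.331) and the dim Ctsj (−0.07, adjusted p = 0.549), of which Atp6v1e1, Atp6ap2 and Ctsj are named after their values were seen. All 8 ubiquitous V1 subunits had values at or below 0, from −0.28 to −0.00 for Atp6v1h. The broad V0 subunits had −0.17 for Atp6v0b to 0.07 for Atp6v0e1, and the restricted isoforms −0.13 for Atp6v1b1 to 0.03 for Atp6v1c2. Among cathepsins the lowest value was that of Ctsd, −0.37 (interval −0.65 to −0.09, adjusted p = 0.396), the only gene whose interval reached beyond 1.5-fold, and the highest that of Ctse, 0.11 (adjusted p = 0.728). Ctsa had 0.07 (adjusted p = 0.697).

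**Figure D4:**
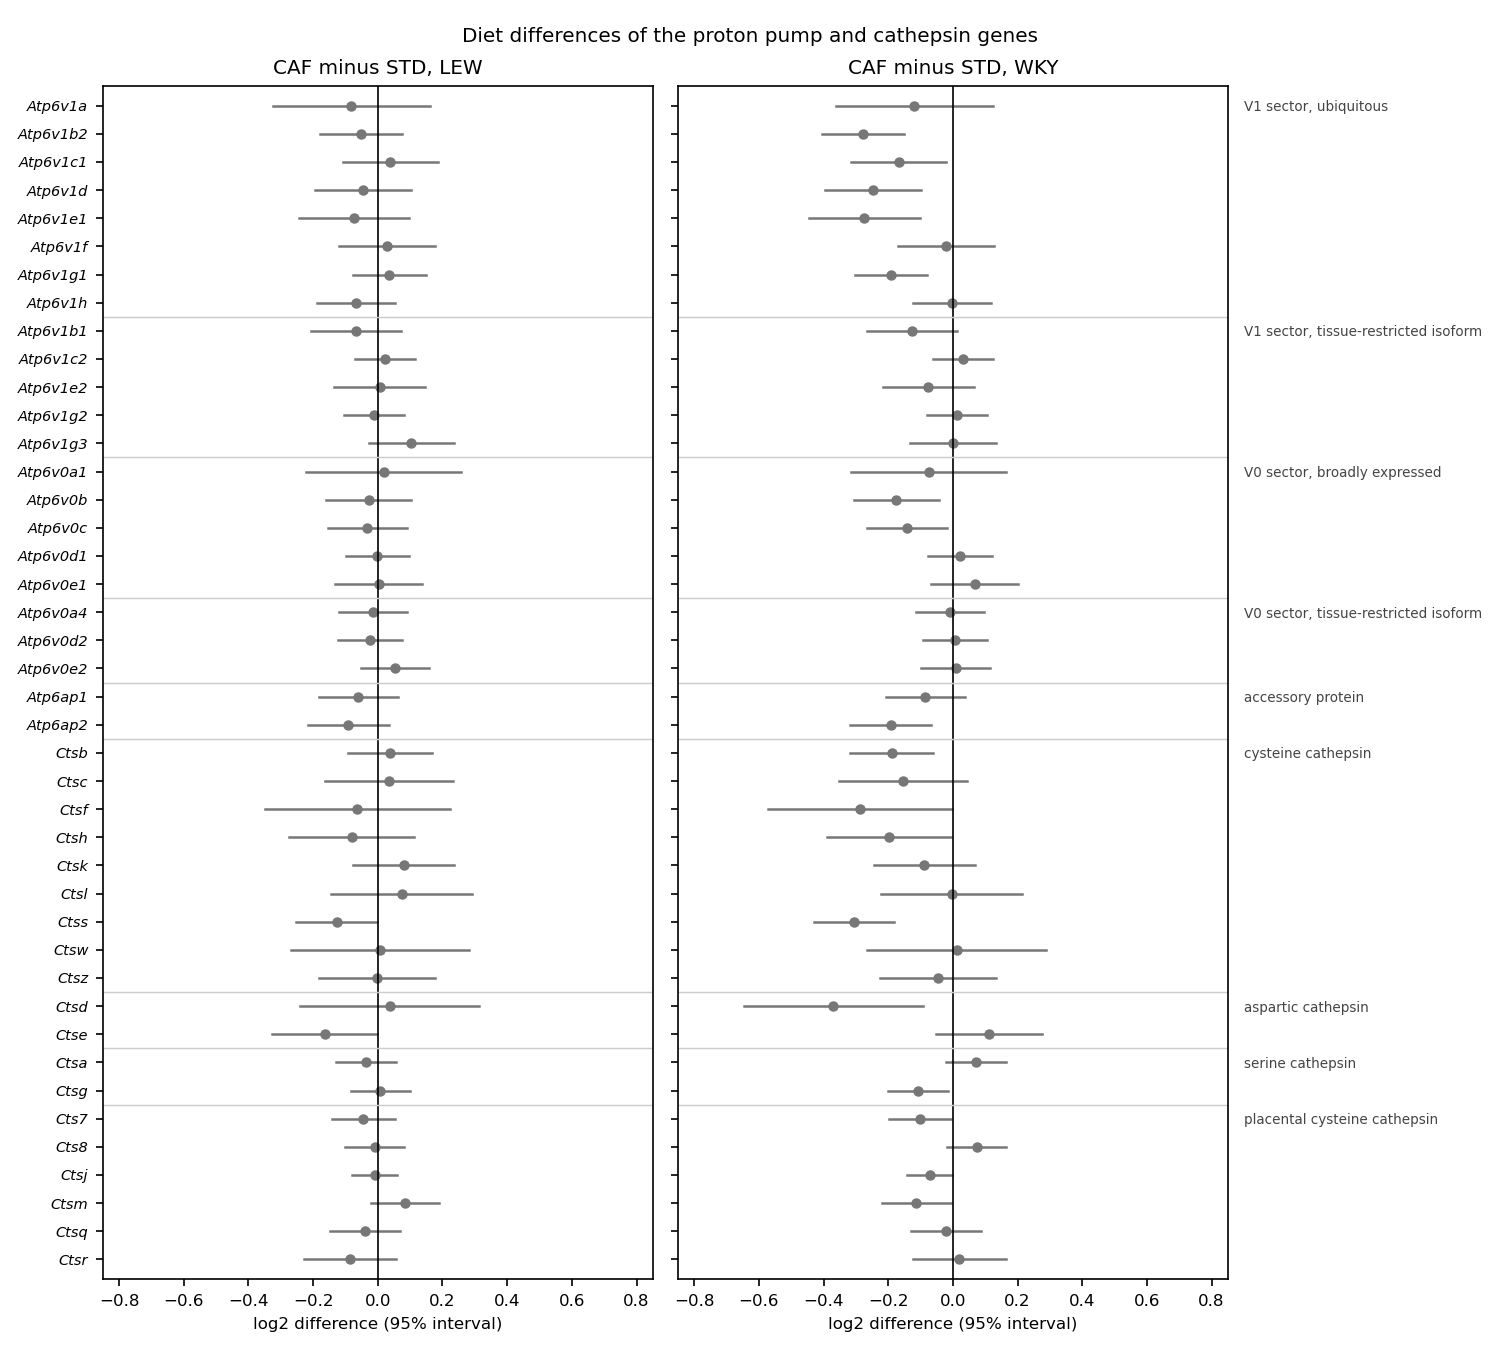
Log2 difference of CAF minus STD rats in LEW (left) and WKY rats (right) for the 42 genes, ordered by role, with 95% intervals from limma over 20 arrays. No gene passed in either strain. In WKY rats 30 of 42 points lie below 0, and in LEW rats 25 of 42, between −0.16 and 0.10 in all.

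The WKY STD arrays enter both the strain comparison on STD and the diet comparison in WKY rats, so that the higher V1 subunits in the one and their lower values in the other rest in part on the same 5 rats. The neutrophil, monocyte and NK cell markers also had lower medians on CAF in WKY rats, at −0.26, −0.22 and −0.18. Those of B cells, erythroid cells and platelets were higher, at 0.19, 0.18 and 0.16, and those of T and dendritic cells were 0.01 and −0.03. None of these markers passed, and their part was not tested. The test of the difference itself, the diet by strain interaction, gave no gene among the 42 and none among all transcripts (0.0%). At an unadjusted p under 0.05, 1 of the 42 genes had a value above 0 and 6 had one below it, against 3.1% and 2.84% of all transcripts (5.95% together). The 3 of the smallest p were Atp6v1g1 at −0.23 (SE 0.08, adjusted p = 0.743), Ctsm at −0.20 (SE 0.07, adjusted p = 0.788) and Atp6v1b2 at −0.23 (SE 0.09, adjusted p = 0.817). A diet effect that differs between the strains was thus not shown for any of these genes, and for 40 of them the interval lay within a change of 1.5-fold.

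The other genes of the lysosome were counted from lists. Of all transcripts, 7.58% passed between the strains on CAF and 11.3% on STD, and of the brighter ones 12.4% and 18.1%. The counts of the lists were not tested against these shares, and the genes named are single members. Of 35 measured soluble hydrolases other than cathepsins, 4 were higher and 5 lower in WKY rats on CAF, among them the glycosidases Fuca1 at −0.35 (SE 0.05, adjusted p = 7.19e-05) and Hexa at −0.29 (adjusted p = 0.00125), the sulfatase Arsb at 0.44 (SE 0.07, adjusted p = 0.000122) and Gusb at 0.32 (adjusted p = 0.0127). On STD 9 were higher and 4 lower, and these 4 genes kept their direction at −0.32, −0.45, 0.43 and 0.27. Of 28 membrane proteins, 1 was higher and 1 lower on CAF, Laptm4b at 0.65 (adjusted p = 0.00332) and Scarb2, the receptor that carries glucocerebrosidase to lysosomes, at −0.54 (adjusted p = 0.000341). On STD 3 were higher and 2 lower. The membrane glycoproteins Lamp1 and Lamp2, named here after their values were seen, did not pass on either diet (−0.02 to 0.05).

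Of 11 measured inhibitors of cathepsins and related proteases, none passed on CAF, where the smallest p were those of Serpinb9 at 0.27 (adjusted p = 0.215) and Cst7, cystatin F, at −0.23 (adjusted p = 0.464). On STD 1 was higher, Cstb, cystatin B, at 0.32 (SE 0.10, adjusted p = 0.0372). Of 10 assembly factors and regulators of the pump, Tmem9b was lower on CAF at −0.18 (adjusted p = 0.0429) and Ccdc115 on STD at −0.18 (adjusted p = 0.0269), while Tcirg1 did not pass at 0.07 and 0.23 (adjusted p = 0.811 and 0.169). Of 23 regulators of lysosomal genes and nutrient sensing, the Rag GTPases Rragc and Rragd, which bring mTORC1 to the lysosome, were higher in WKY rats on CAF, at 0.28 and 0.36 (adjusted p = 0.0067 and 0.0229), and Rragc, Lamtor3 and Rheb on STD, at 0.39, 0.38 and 0.19 (adjusted p = 0.000292, 0.00332 and 0.0107). Tfeb, a factor known to activate lysosomal genes, did not pass at 0.06 and 0.14 (adjusted p = 0.805 and 0.372). No gene of these lists passed between the diets in either strain.

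The 29 brighter genes also varied among the rats of a group. After removal of the group means, the 406 pairs of these genes had a median r of 0.19 over the 20 arrays, and 62 pairs had an r over 0.5. The most alike were Ctsb with Atp6v0b (r 0.81, rho 0.83, and 0.73 without the 2 farthest arrays), Ctsb with Atp6v1b2 (r 0.79, rho 0.63, and 0.68) and Ctsf with Ctsh (r 0.77, rho 0.78, and 0.79). Without the 4 heat shock arrays these pairs had r of 0.83, 0.79 and 0.84. Ctsz, an exopeptidase chosen after its values were seen, followed the monocyte markers most closely of the 29 genes, with an r of 0.90 (rho 0.83), and had no strain difference that passed, at −0.07 on CAF and −0.03 on STD (adjusted p = 0.759 and 0.895, and 0.00 on STD without the 4 heat shock arrays). These values describe the arrays, which share depth and cell composition. The part of the monocyte markers in the presence or absence of a strain difference was not tested.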

How the data were processed

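RNA of 20 rats was measured on 1 array per rat, and groups and replicate numbers were taken from the sample titles. The authors deposited log2 signal values of 28826 probe sets, already normalised, by RMA in the methods but by MAS5 in the submitters' processing notes, and the genome build is not given in the sources used here. The values ran from 3.57 to 14.4, and no pair of arrays was identical. They were used as deposited, without a filter. Values summarised over probes in this way tend to compress differences.

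All comparisons came from 1 fit over the 4 group means, in limma 3.58.1 (R 4.3.3), with 16 residual and 3.67 prior degrees of freedom, no covariate and Benjamini–Hochberg adjustment over all probe sets of a comparison. The procedure was tested on simulated data for the strains on CAF only. Symbols were those of GEO's platform annotation, with 15209 probe sets under 1 symbol, 306 under several and 13311 not listed.

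Named genes were those that passed in any comparison, the 3 of the smallest p where fewer than 3 passed, the highest and lowest difference of a role, and 2 to 4 genes of each further list by their adjusted p on CAF, and exceptions are marked. The members and lists were chosen with earlier results of these data known. The deviations of rats of the same replicate number had r of −0.18 to 0.43 over 30 pairs, with 9 above 0.1. For number 5 all 6 pairs had a positive r, of 0.05 to 0.43, with 3 above 0.1. Alternatives were only the groups compared, an intensity trend, 2 rescalings, a filter on dim probe sets, the replicate number as a block, each array left out, and, chosen after seeing the data, the 4 heat shock arrays left out.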

Additional observations from a re-analysis of the deposited data

Results flagged for a closer look

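In 6 of the 168 groups of 5 rats that the 42 genes give, the highest or lowest rat lay farther from the others than Dixon's 95% limit, which chance alone exceeds in about 1 in 20 groups. Atp6v1a was at 10.50 in LEW STD rat 2, against 9.94 to 10.10 in the other 4 rats, and that rat is one of the 4 heat shock arrays. Atp6v1h was at 9.88 in LEW STD rat 4 (others 10.05 to 10.10). Ctsb was at 12.83 in WKY CAF rat 3 (others 13.12 to 13.23), the array whose absence also ends the call of Atp6v1g1 on CAF. LEW CAF rat 4 was at 11.60 for Atp6v0e1 (others 11.41 to 11.44) and at 4.35 for the dim Ctsq (others 4.48 to 4.51). Atp6v0d2, also dim, was at 4.59 in WKY STD rat 1 (others 4.69 to 4.72), another of the 4 heat shock arrays.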

How the results depend on the processing

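The 11 differences that passed and the 9 of the smallest p between the diets and in the interaction, 20 in all, were recomputed under each alternative, and none of them changed sign. Of these 535 values, 508 stayed on their side of the threshold and 27 no longer passed, 20 of them with 1 array left out. The 9 had not passed at the start and could not be lost, so that all 27 fell on the 11. They were calls of Atp6v1g1 and Ctsh on CAF and of Ctss, Ctsd and Ctsa on STD. Among the other genes, Ctsw on CAF and Ctsw, Ctse, Atp6v1e1 and Atp6v0a1 on STD passed without the 4 heat shock arrays, and some differences near 0 changed sign there, such as that of Ctsz on STD. The count of genes that passed was 2 to 4 on CAF with each array left out (2 without LEW CAF rat 3 or WKY CAF rat 3) and 5 to 11 on STD (11 without WKY STD rat 1). With the replicate number as a block, 3 genes passed on CAF, 8 on STD and none between the diets or in the interaction. The labels do not say that this number pairs rats, and 5 of 20 arrays correlated best with their own number. The count of genes lower on CAF in WKY rats at an unadjusted p under 0.05, which was 17, was 11 with only the groups compared, 11 with quantile normalisation, 15 with the replicate block and 10 to 17 with each array left out.

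The number of arrays limits what can be seen, and the median SE between the strains on CAF was 0.0689. The 13 dim genes, near-identical paralogs among them, carry little signal. Strain and cell composition cannot be told apart in these data.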
